A study of Macaca mulatta with 27 samples.

Results

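The comparison set rhesus monkey embryonic stem cells that had been reprogrammed in NHSM-v medium against cells of the same line reprogrammed in 4i/L/b medium, with 3 RNA-seq libraries each, chosen by their labels as 6 of the 27 libraries of the series. All genes were compared, and 13033 of the 17967 gene symbols in the count tables held enough counts to be tested. Both groups derive from LyonES-tGFP-(S3), a clonal rhesus line that carries a tauGFP transgene under the ubiquitous CAG promoter and a lentiviral STAT3-ERT2 transgene, a STAT3 that is inactive without tamoxifen. The paper states that both media were applied without tamoxifen. The labels class both groups as naive cells. 6 libraries of primed cells, the state from which reprogramming starts, serve here only as a reference for levels.

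Pluripotent stem cells of primates are usually kept in a primed state, which resembles the epiblast close to gastrulation. Media that combine cytokines with kinase inhibitors are used to move them to the naive state of the earlier, preimplantation epiblast, in which factors such as KLF4, KLF5, TFCP2L1 and ZFP42 are typical and lineage genes are silent. The inhibitors act on pathways with well-known target genes. MEK and ERK carry FGF signals to the EGR, FOS, DUSP and SPRY genes, GSK3 holds back Wnt signalling and with it AXIN2 and LEF1, and LIF acts through STAT3. The comparison asks how far 2 such media leave the same line with different transcriptomes.

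The libraries held 8375416 to 12201171 counts, and the 10 most abundant genes took 5.01 to 5.70% of them. Levels are in CPM, a gene's counts scaled to the size of its library, after TMM scaling, which compares a gene between libraries but not one gene with another, since no length was divided out. A floor of 3 counts corresponded to 0.269 to 0.369 CPM. The NHSM-v libraries differed more from each other than the 4i/L/b libraries did, with Pearson's r of log2 CPM across genes of 0.960 to 0.969 against 0.986 to 0.988. On principal components of the 6 libraries, the first (71.9% of the variance) separated the media and the second (12.6%) separated NHSM-v replicate 2, at 43.8, from NHSM-v replicates 1 and 3, at -28.1 and -18.8. With NHSM-v replicate 2 left out, 6624 genes were called instead of 6532.

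The label of pluripotent cells was checked on 9 defining markers. Their summed level was 113 to 122 CPM in NHSM-v and 150.3 to 158 CPM in 4i/L/b, against 3266 to 3784 CPM in primed cells, and 3 of the 9 were at or under the floor in each medium. POU5F1, the core factor of pluripotency, was at 0.23, 0.21 and 0.449 CPM in NHSM-v and 0.579, 0.492 and 1.64 CPM in 4i/L/b, against 1127 to 1277 CPM in primed cells. NANOG, its partner, was at 0 in every NHSM-v library and at 0.0965, 0.123 and 0 CPM in 4i/L/b, against 105 to 156 CPM in primed cells. The mRNA of POU5F1 and NANOG was thus near the floor in both groups, and the cells are called here by their medium. In bulk RNA, fewer cells of a type and less RNA per cell cannot be told apart.

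Of the 13033 genes tested, 6532 (50.1%) were called at an adjusted p under 0.05 by edgeR's quasi-likelihood test. They split evenly, with 3262 higher in NHSM-v (25% of those tested) and 3270 higher in 4i/L/b (25.1%). Larger differences leaned towards 4i/L/b: of the 1963 genes called with at least 1 on the log2 scale (15.1%), 778 were higher in NHSM-v (5.97%) and 1185 in 4i/L/b (9.09%). At 2 or more on the log2 scale, 186 genes were higher in NHSM-v and 522 in 4i/L/b. The libraries of the 2 groups did not overlap for 7523 of the genes tested (57.7%). The median difference over all genes was -0.03 on the log2 scale, NHSM-v over 4i/L/b, and the median SE was 0.15. Because so large a share of all genes was called, counts of list members below are read against these shares. A gene near 0 in 1 medium could pass the count filter only through the other medium, so the filter fixed its direction. Nothing in the labels says that the libraries came from separate cultures, so the p-values measure the spread between these libraries, which may be technical.

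**Figure D1:**
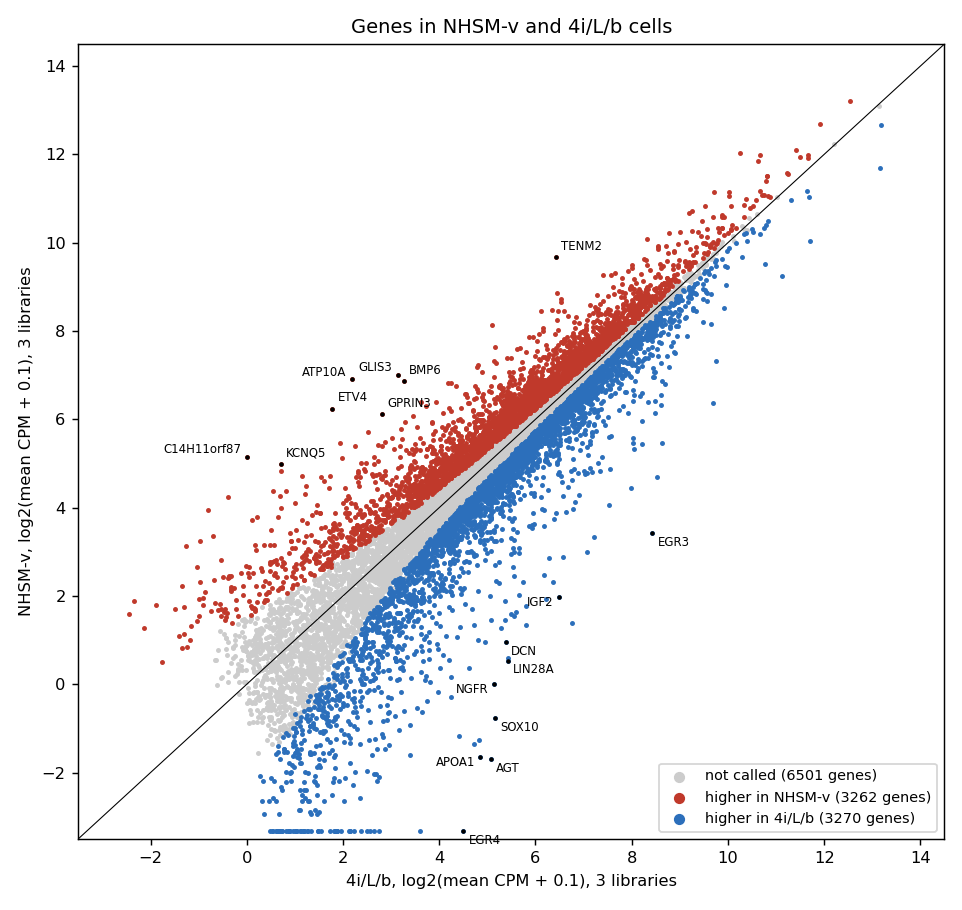
Mean level of each tested gene in 4i/L/b (x axis) and NHSM-v (y axis), both as log2 of CPM plus 0.1, with 3 libraries each. Red points mark the 3262 genes called higher in NHSM-v and blue points the 3270 called higher in 4i/L/b. Labels mark a selection of the genes of largest difference, and the blue points spread farther from the diagonal than the red ones, with EGR4 among the genes at 0 in NHSM-v.

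Among regulators of the pluripotent state, the residual expression of several primed-cell genes was higher in 4i/L/b, while others were higher in NHSM-v. Of 7 core pluripotency genes tested, of 14 in the tables, 5 were higher in 4i/L/b against 2 in NHSM-v. Under the alternative settings 2 to 6 members were higher in 4i/L/b. LIN28A, an RNA-binding protein that blocks maturation of let-7 microRNAs, was at 1.95, 0.841 and 1.26 CPM in NHSM-v and 42.9, 41.4 and 44.2 CPM in 4i/L/b (log2 fold change -5.0 ± 0.24 SE, adjusted p = 2.15e-14). The groups did not overlap, and both lay far below the 477 to 679 CPM of primed cells. DPPA4, a chromatin protein of early embryos, had 0.67 ± 0.745 CPM in NHSM-v and 4.98 ± 1.73 CPM in 4i/L/b (log2 fold change -2.86 ± 0.70 SE, adjusted p = 0.00172). SOX2 was at 108, 100.2 and 99.8 CPM in NHSM-v and 76.6, 76.2 and 72.6 CPM in 4i/L/b, and was higher in NHSM-v (log2 fold change 0.44 ± 0.09 SE, adjusted p = 0.000219). Both groups lay below its primed range of 213 to 341 CPM. L1TD1, an RNA-binding protein of pluripotent cells, was also higher in NHSM-v, with 60.5 ± 3.36 CPM in NHSM-v and 14.3 ± 2.58 CPM in 4i/L/b (log2 fold change 2.08 ± 0.15 SE, adjusted p = 3.96e-11), against 1111 to 1395 CPM in primed cells.

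Of 8 naive-state genes tested, of 20 in the tables, 4 were higher in 4i/L/b against 2 in NHSM-v. ZFP42, a zinc-finger factor of pluripotent cells also called REX1, was at 0 in each NHSM-v library and at 5.89, 6.64 and 6.0 CPM in 4i/L/b. This made it at least 17.9-fold higher in 4i/L/b (adjusted p = 2.35e-07), with 3 counts per library as the floor, and both groups lay below the 47.7 to 76.7 CPM of primed cells. KLF5, a Krüppel-like factor of the naive network, was at 24.2, 38.4 and 34.5 CPM in NHSM-v and 181, 148 and 145 CPM in 4i/L/b (log2 fold change -2.29 ± 0.13 SE, adjusted p = 4.78e-13), and both groups exceeded the 2.25 to 22.7 CPM of primed cells. TBX3, a T-box repressor, followed the same order at low levels, with 0.468 ± 0.315 CPM in NHSM-v and 7.48 ± 1.71 CPM in 4i/L/b (log2 fold change -4.03 ± 0.55 SE, adjusted p = 2e-06).

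TFAP2C, a factor used as a marker of primate naive cells and also active in trophoblast and germ line, had the opposite order. It was at 80, 77.3 and 71.8 CPM in NHSM-v and 17.7, 22.6 and 24.7 CPM in 4i/L/b (log2 fold change 1.81 ± 0.13 SE, adjusted p = 4.81e-11), and every NHSM-v library exceeded every 4i/L/b library. The 4i/L/b libraries lay within the primed range of 7.46 to 40.4 CPM. The difference in KLF4, another factor the study stained for, did not pass the test, at 2.18, 5.68 and 3.23 CPM in NHSM-v and 4.05, 2.46 and 3.48 CPM in 4i/L/b (adjusted p = 0.829), with overlapping groups. The same held for TFE3, a lysosome-linked factor, at 53 ± 1.19 CPM in NHSM-v and 59.5 ± 2.31 CPM in 4i/L/b (adjusted p = 0.173), although its groups did not overlap. By immunostaining, the paper reported none of these factors in NHSM-v cells and stronger expression in the other group compared here. The mRNA of TFAP2C thus had the opposite order to the staining, and that of KLF4 and TFE3 showed no called difference. Counts of mRNA do not measure protein, and the reason for the disagreement was not tested.

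Primed-state genes showed a larger share in NHSM-v, with 11 of 17 called higher there, 4 called higher in 4i/L/b and a median difference of 0.76 on the log2 scale. These counts compare the media with each other, not with primed cells. DNMT3B, a member of the list, had a mean of 26.5 CPM in NHSM-v and 41 CPM in 4i/L/b, against 3115 CPM in primed cells. OTX2, a homeobox factor of the primed epiblast and of the anterior neural plate, was at 149, 139 and 164 CPM in NHSM-v and 27, 27.4 and 29.1 CPM in 4i/L/b (log2 fold change 2.42 ± 0.10 SE, adjusted p = 1.85e-15). The NHSM-v libraries lay at or near the primed range of 96.7 to 151 CPM, and the 4i/L/b libraries lay below it. ETV4, an ETS factor induced by FGF signalling, was among the genes of largest difference, at 75.9, 72.5 and 78.6 CPM in NHSM-v and 2.03, 4.55 and 3.38 CPM in 4i/L/b (log2 fold change 4.53 ± 0.19 SE, adjusted p = 2.4e-15), with 149 to 214 CPM in primed cells. THY1, a surface protein of primed and mesenchymal cells, was higher in NHSM-v by 3.96-fold (adjusted p = 4.54e-15). Its mean was 232 CPM in NHSM-v, above the primed range of 60.2 to 95.8 CPM, and 58.4 CPM in 4i/L/b, near that range. SFRP2, a secreted Wnt inhibitor, and SALL1, a zinc-finger repressor, were higher in 4i/L/b, by 8.45-fold and 3.93-fold (adjusted p = 2.12e-10 and 1.26e-06).

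Many of the genes that cells transcribe at once on growth factor, calcium or stress signals were higher in 4i/L/b. In a list of 32 immediate early genes, drawn up after the values had been seen, 29 were higher in 4i/L/b, 1 was higher in NHSM-v, and the median difference was -1.59 on the log2 scale. Because the values were known, these counts describe the list and not the class. EGR3, a zinc-finger factor induced through ERK, was at 9.65, 15.8 and 6.37 CPM in NHSM-v and 333, 379 and 319 CPM in 4i/L/b (log2 fold change -5.04 ± 0.16 SE, adjusted p = 2.54e-17). The 4i/L/b libraries lay in or near the primed range of 231 to 362 CPM, and the NHSM-v libraries lay far below. Its relative EGR4 was at 0 in each NHSM-v library and at 22, 27.2 and 18.4 CPM in 4i/L/b, at least 65.4-fold higher (adjusted p = 2.37e-12).

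Most of the other members had the same order, and the next 4 did so without overlap. FOS, a subunit of the AP-1 factor, was at 4.82, 4.21 and 5.38 CPM in NHSM-v and 42.2, 36.9 and 33.6 CPM in 4i/L/b (log2 fold change -2.97 ± 0.19 SE, adjusted p = 6.78e-12), and NPAS4, a factor induced by calcium in neurons, was at 8.15, 9.25 and 12.7 CPM in NHSM-v and 147, 147 and 151 CPM in 4i/L/b (log2 fold change -3.87 ± 0.13 SE, adjusted p = 5.56e-17). The 4i/L/b level of NPAS4 was also above the 15.6 to 26.6 CPM of primed cells, as was that of NR4A3, an orphan nuclear receptor, with 7.93 ± 3.84 CPM in NHSM-v and 135 ± 12.4 CPM in 4i/L/b against 1.45 to 6.05 CPM (log2 fold change -4.11 ± 0.18 SE, adjusted p = 4.73e-15). The phosphatase DUSP2, which switches off ERK, was at 0.574, 0.105 and 0.359 CPM in NHSM-v and 23.3, 17.1 and 22.8 CPM in 4i/L/b (log2 fold change -5.91 ± 0.38 SE, adjusted p = 6.78e-12). JUND and NR4A2 did not pass the test and had overlapping groups, and IER3, an apoptosis regulator, was the member higher in NHSM-v, with 46.7 ± 7.35 CPM in NHSM-v and 9.2 ± 1.01 CPM in 4i/L/b (log2 fold change 2.34 ± 0.17 SE, adjusted p = 5.05e-11).

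The feedback genes of the MEK-ERK pathway were divided. Of 22 tested, 12 were higher in 4i/L/b against 7 in NHSM-v, with a median of -0.28. The dual-specificity phosphatases DUSP5 and DUSP6, which remove phosphate from ERK, were higher in 4i/L/b, with 19 ± 1.15 CPM in NHSM-v and 94.6 ± 3.87 CPM in 4i/L/b for DUSP5 (log2 fold change -2.32 ± 0.11 SE, adjusted p = 4.17e-14) and 193 ± 3.58 CPM in NHSM-v and 324 ± 25 CPM in 4i/L/b for DUSP6 (log2 fold change -0.75 ± 0.07 SE, adjusted p = 2.56e-09). The ETS factor ETV5 and the inhibitor SPRY4 had the opposite order, as ETV4 did, with 87 ± 6.81 CPM in NHSM-v and 50.3 ± 7.06 CPM in 4i/L/b for ETV5 (log2 fold change 0.78 ± 0.11 SE, adjusted p = 2.97e-06) and 182 ± 4.54 CPM in NHSM-v and 129 ± 9.89 CPM in 4i/L/b for SPRY4 (log2 fold change 0.49 ± 0.08 SE, adjusted p = 9.74e-06). Targets of one pathway thus stood higher in different media. In the list of JNK, p38 and AP-1 genes, 15 of 25 were higher in 4i/L/b against 2 in NHSM-v, with a median of -0.54. They included JUNB at 32, 37.7 and 39.7 CPM in NHSM-v and 130.2, 135 and 146 CPM in 4i/L/b (log2 fold change -1.91 ± 0.10 SE, adjusted p = 1.6e-13) and the stress-induced factor ATF3 at 11.2, 22 and 10.8 CPM in NHSM-v and 78.5, 82.1 and 95.8 CPM in 4i/L/b (log2 fold change -2.55 ± 0.18 SE, adjusted p = 5.04e-11). FOSB, ATF3, DUSP1, JUN, JUNB and JUND stand in both this list and that of immediate early genes, and EGR1, EGR2, EGR3, FOS, IER2, IER3 and MYC stand in that list and among the feedback genes.

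A further group higher in 4i/L/b held LIN28 and genes around it, in a list of 13 also drawn up after the values had been seen, with 11 higher in 4i/L/b, 0 in NHSM-v and a median of -1.83. These counts, too, describe the list alone. LIN28A and LIN28B stand both in it and among the core pluripotency genes. LIN28B, the paralog of LIN28A, was at 24.6, 30.3 and 27.1 CPM in NHSM-v and 158, 119 and 128 CPM in 4i/L/b (log2 fold change -2.31 ± 0.12 SE, adjusted p = 7.03e-14). TRIM71, a let-7 target that restrains differentiation, was at 2.53, 4.31 and 2.24 CPM in NHSM-v and 51.2, 45.2 and 49.1 CPM in 4i/L/b (log2 fold change -4.01 ± 0.21 SE, adjusted p = 1.4e-13). Both were below the primed ranges, of 274 to 459.9 CPM for LIN28B and 298 to 607 CPM for TRIM71, in every library of either medium. The RNA-binding proteins IGF2BP1 and IGF2BP3 differed by 1.26-fold and 1.4-fold (adjusted p = 0.000159 and 4.17e-05).

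IGF2, a fetal growth factor, and H19, the noncoding RNA of the same imprinted domain, stood higher in 4i/L/b than in NHSM-v or primed cells. IGF2 was at 4.94, 3.79 and 2.69 CPM in NHSM-v and 70.2, 109.8 and 89.4 CPM in 4i/L/b (log2 fold change -4.59 ± 0.20 SE, adjusted p = 4.09e-15), with 0 to 0.988 CPM in primed cells. H19 was at 4.13, 6.73 and 3.86 CPM in NHSM-v and 65.9, 106 and 76.2 CPM in 4i/L/b (log2 fold change -4.08 ± 0.20 SE, adjusted p = 5.33e-14), with 2.67 to 3.81 CPM in primed cells. The imprinted genes as a list were split, with 7 of 19 tested higher in NHSM-v and 7 higher in 4i/L/b, IGF2 and H19 among the latter. PLAGL1, a zinc-finger factor, was also highest in 4i/L/b, with 119 ± 11.5 CPM in NHSM-v and 199 ± 2.24 CPM in 4i/L/b (adjusted p = 2.94e-08) against 2.96 to 11 CPM in primed cells. PEG10, a retrotransposon-derived gene of the placenta, was higher in NHSM-v, with 1000 ± 43.8 CPM in NHSM-v and 498 ± 22.7 CPM in 4i/L/b (log2 fold change 1.0 ± 0.06 SE, adjusted p = 1.23e-12).

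**Figure D2:**
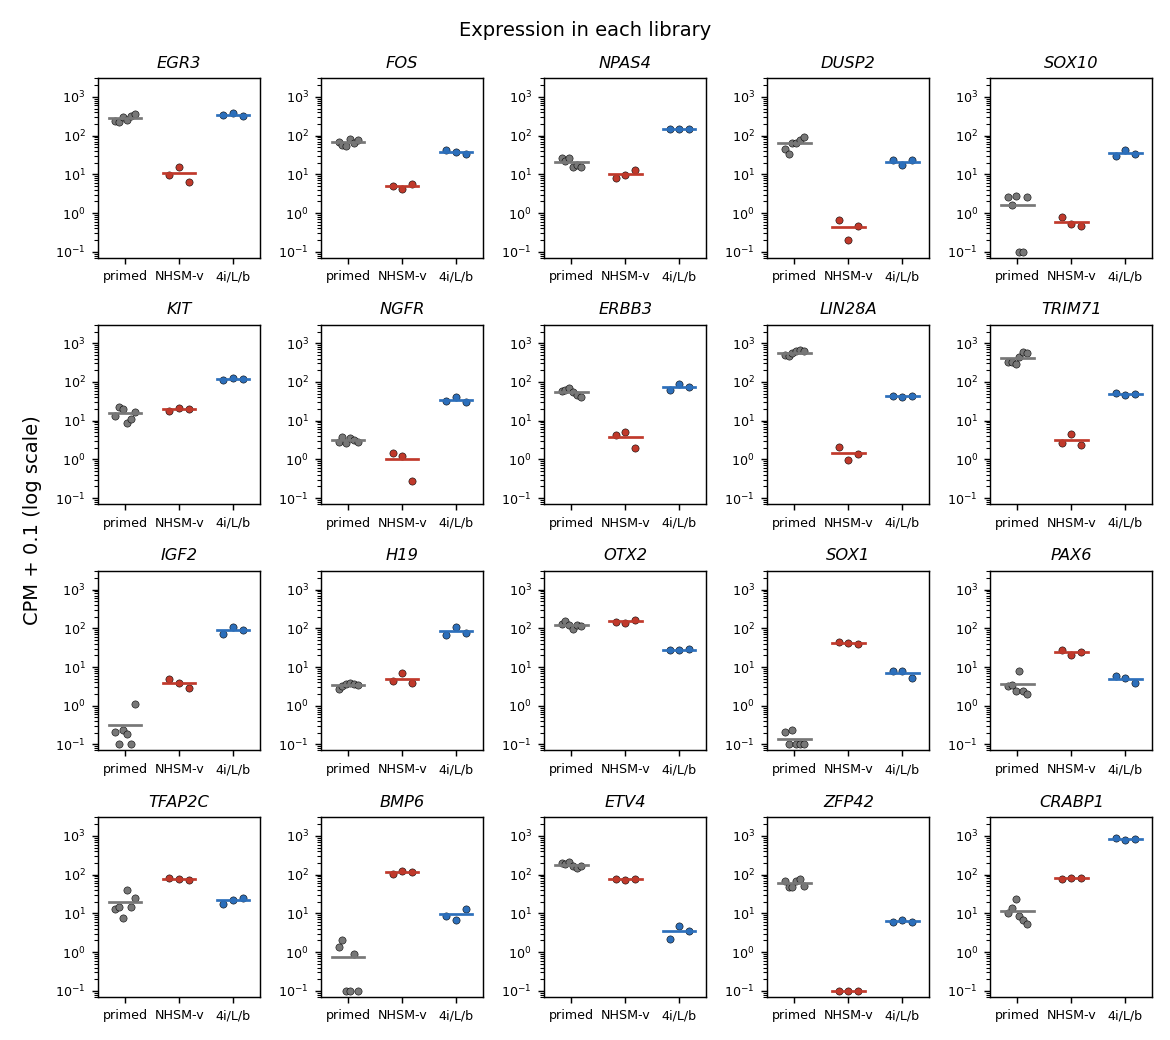
Level of 20 genes in each library of primed cells (grey, 6 libraries), NHSM-v (red, 3) and 4i/L/b (blue, 3), as CPM plus 0.1 on a log axis, with horizontal lines at the group means. The immediate early genes, the SOX10 group and the LIN28 group are lower in NHSM-v, OTX2, SOX1, PAX6, TFAP2C, BMP6 and ETV4 are higher in NHSM-v, and in none of the 20 panels do the red and blue points overlap.

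Neural crest genes gave some of the largest differences. Neural crest is the migratory population that leaves the dorsal neural tube and forms glia, pigment cells and peripheral neurons. Of 21 genes tested, 11 were higher in 4i/L/b against 4 in NHSM-v, with a median of -0.97. SOX10, the factor of crest-derived glia and pigment cells, was at 0.689, 0.42 and 0.359 CPM in NHSM-v and 29.5, 43.1 and 33.7 CPM in 4i/L/b (log2 fold change -6.18 ± 0.30 SE, adjusted p = 3.24e-14). Other genes of crest-derived glia had the same order. The neurotrophin receptor gene NGFR was at 1.38, 1.16 and 0.179 CPM in NHSM-v and 32.8, 41 and 30.9 CPM in 4i/L/b (log2 fold change -5.33 ± 0.32 SE, adjusted p = 2.26e-12) and the neuregulin receptor gene ERBB3 was at 4.25, 4.94 and 1.88 CPM in NHSM-v and 60.3, 90.5 and 72 CPM in 4i/L/b (log2 fold change -4.36 ± 0.22 SE, adjusted p = 9.95e-14). Every 4i/L/b library exceeded every NHSM-v library by more than 10-fold in these 3 genes. ERBB3 was also present in primed cells, at 40.4 to 67.7 CPM, whereas SOX10 stood at 0 to 2.67 CPM there.

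KIT, the stem cell factor receptor, and ETS1, a factor of early crest, were higher in 4i/L/b as well, with 19.5 ± 2.11 CPM in NHSM-v and 119 ± 6.57 CPM in 4i/L/b for KIT (log2 fold change -2.62 ± 0.11 SE, adjusted p = 4.23e-15) and 117 ± 9.82 CPM in NHSM-v and 398 ± 1.41 CPM in 4i/L/b for ETS1 (log2 fold change -1.77 ± 0.07 SE, adjusted p = 1.35e-15). PAX7, a marker of the crest border, was at 0 in NHSM-v and at 4.92, 3.32 and 2.52 CPM in 4i/L/b, at least 10.4-fold higher (adjusted p = 1.43e-05). The list was not uniform. SOX9, PAX3, TFAP2A and PRRX1, which act in crest and also in other tissues, were higher in NHSM-v, with log2 fold changes of 1.07, 0.71, 1.39 and 1.46 (adjusted p = 0.000243, 6.31e-08, 9.5e-06 and 1.82e-11). SNAI2 and TWIST1, which drive cell migration, did not pass the test (adjusted p = 0.353 and 0.117).

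The genes of the central nervous system leaned the other way. Of 11 forebrain and midbrain patterning genes tested, of 26 in the tables, 9 were higher in NHSM-v, 0 were higher in 4i/L/b, and the median was 2.27 on the log2 scale. Under the alternative settings the median was 1.331 to 2.462, and 3 to 9 members were higher in NHSM-v. Beside OTX2, most of them were at low levels. Members near 0 in 4i/L/b, PAX2 among them, could pass the count filter only through NHSM-v, which fixed their direction. PAX2, of the midbrain-hindbrain boundary, had 5.29 ± 1.73 CPM in NHSM-v and 0.673 ± 0.252 CPM in 4i/L/b (log2 fold change 2.95 ± 0.58 SE, adjusted p = 0.0002), and EN2, a homeobox factor of the same region, had 6.97 ± 2.36 CPM in NHSM-v and 1.43 ± 0.763 CPM in 4i/L/b (log2 fold change 2.25 ± 0.48 SE, adjusted p = 0.000471).

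SOX1, the early marker of neural plate, was at 43.8, 42.8 and 40.4 CPM in NHSM-v and 7.82, 7.88 and 5.03 CPM in 4i/L/b (log2 fold change 2.61 ± 0.18 SE, adjusted p = 3.51e-11), and PAX6, a factor of neural progenitors, at 26.8, 20.6 and 23.9 CPM in NHSM-v and 5.69, 5.04 and 3.87 CPM in 4i/L/b (log2 fold change 2.28 ± 0.23 SE, adjusted p = 1.2e-08). The groups did not overlap in either gene, and SOX1 reached at most 0.141 CPM in primed cells. In the wider list of 21 neural progenitor genes, 8 were higher in NHSM-v and 5 in 4i/L/b, with a median near 0, so SOX1 and PAX6 were not matched by the list as a whole. The 8 general neural markers used for the label check summed to 2453 to 2509 CPM in NHSM-v and 2691 to 2939 CPM in 4i/L/b. No marker was at the floor in either group. Primed cells had 2296 to 2569 CPM, so this sum did not separate NHSM-v from primed cells.

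Neurons are reached from such progenitors through proneural factors. Of 32 proneural and neuronal genes tested, 18 were higher in NHSM-v and 4 in 4i/L/b, with a median of 0.74. NEUROG2, a proneural factor, was at 5.63, 5.68 and 4.84 CPM in NHSM-v and 1.54, 0.492 and 0 CPM in 4i/L/b (log2 fold change 2.94 ± 0.68 SE, adjusted p = 0.00102). INSM1, a factor of newborn neurons, had 39.4 ± 2.87 CPM in NHSM-v and 14.7 ± 0.816 CPM in 4i/L/b (log2 fold change 1.41 ± 0.15 SE, adjusted p = 5.11e-08), and ELAVL3, a neuronal RNA-binding protein, 37.4 ± 0.991 CPM in NHSM-v and 10.2 ± 2.1 CPM in 4i/L/b (log2 fold change 1.87 ± 0.18 SE, adjusted p = 5.22e-09). Among structural genes, TUBB3, a neuronal tubulin, was at 309, 322 and 258 CPM in NHSM-v and 157, 145 and 139.8 CPM in 4i/L/b (log2 fold change 1.0 ± 0.08 SE, adjusted p = 4.02e-10) and MAP2, a dendritic microtubule protein, was at 619, 634 and 641 CPM in NHSM-v and 406, 357 and 355 CPM in 4i/L/b (log2 fold change 0.75 ± 0.06 SE, adjusted p = 5.97e-10). The filament gene PRPH and the synaptic gene SNAP25 were higher in 4i/L/b, with log2 fold changes of -1.55 and -1.03 (adjusted p = 0.000424 and 0.00985), the call of SNAP25 being lost in a fit of all 8 groups (adjusted p = 0.154). DCX, a protein of migrating neurons, did not pass the test (adjusted p = 0.141). The summed level of the list was 2023 to 2174 CPM in NHSM-v, 1255 to 1379 CPM in 4i/L/b and 394 to 501 CPM in primed cells.

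More genes of axial and dorsal position were higher in NHSM-v than in 4i/L/b. Of 19 HOX genes tested, of 38 in the tables, which set position along the body axis, 8 were higher in NHSM-v and 2 in 4i/L/b, with a median of 1.48. Under the alternative settings the median was 0.667 to 1.671, and 4 to 10 members were higher in NHSM-v. HOXC6, of the trunk, was at 8.61, 19 and 14.9 CPM in NHSM-v and 2.99, 2.21 and 2.13 CPM in 4i/L/b (log2 fold change 2.52 ± 0.33 SE, adjusted p = 1.25e-06), and HOXA2, of the hindbrain, at 50.8, 42.4 and 45.6 CPM in NHSM-v and 14.8, 19.8 and 19.4 CPM in 4i/L/b (log2 fold change 1.36 ± 0.15 SE, adjusted p = 8.24e-08). Of 19 genes of the dorsal neural tube, 10 were higher in NHSM-v and 6 in 4i/L/b. ZIC1, a zinc-finger factor of the dorsal neural tube, was at 362, 335 and 360.1 CPM in NHSM-v and 97.1, 97.3 and 93.1 CPM in 4i/L/b (log2 fold change 1.87 ± 0.07 SE, adjusted p = 3.15e-16). The roof plate ligands WNT1 and WNT3A had the opposite order, with 22.4 ± 2.95 CPM in NHSM-v and 37.5 ± 5.41 CPM in 4i/L/b for WNT1 (log2 fold change -0.75 ± 0.15 SE, adjusted p = 0.000313) and 8.05 ± 1.17 CPM in NHSM-v and 33.8 ± 3.58 CPM in 4i/L/b for WNT3A (log2 fold change -2.08 ± 0.18 SE, adjusted p = 1.77e-09).

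Most endoderm genes were higher in 4i/L/b, many of them at low levels, while some of the more abundant members were higher in NHSM-v. Of 17 tested, of 20 in the tables, 12 were higher in 4i/L/b against 3 in NHSM-v, with a median of -2.18, also with the members at 0 in NHSM-v taken at their bounds. Those members passed the count filter through 4i/L/b alone. The list depended on the processing: under the alternative settings the median was -2.882 to -0.426, and 4 to 14 members were higher in 4i/L/b. SOX17 was at 0 in NHSM-v and at 3.86, 3.82 and 3.0 CPM in 4i/L/b, at least 10.3-fold higher (adjusted p = 1.24e-05). HNF4A, a factor of liver and visceral endoderm, was at 0 in NHSM-v and at 4.05, 3.94 and 5.71 CPM in 4i/L/b, at least 13.2-fold higher (adjusted p = 3e-06). GATA6, an endoderm factor that the study stained for, was at 0.689, 1.37 and 2.15 CPM in NHSM-v and 7.14, 9.85 and 8.03 CPM in 4i/L/b (log2 fold change -2.54 ± 0.44 SE, adjusted p = 4.32e-05), and this call was lost in a fit of all 8 groups (adjusted p = 0.0772). The apolipoprotein gene APOA1 was at 0.459, 0.105 and 0.0897 CPM in NHSM-v and 22.7, 33.1 and 30.6 CPM in 4i/L/b (log2 fold change -7.05 ± 0.38 SE, adjusted p = 2.42e-13). The 3 members higher in NHSM-v were the ligand BMP6, the chemokine receptor CXCR4, with 67.4 ± 5.9 CPM in NHSM-v and 26.3 ± 0.812 CPM in 4i/L/b (adjusted p = 2.01e-09), and COL4A1, a basement membrane collagen of many tissues. COL4A1 was at 2825, 2623 and 2643 CPM in NHSM-v and 1559, 1950 and 1773 CPM in 4i/L/b (log2 fold change 0.61 ± 0.06 SE, adjusted p = 2.73e-08). The call of CXCR4 was lost in the same fit of all 8 groups (adjusted p = 0.062). The summed level of the list was higher in NHSM-v, at 3398 to 3632 CPM against 2423 to 3012 CPM, although most of its members had the opposite order.

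Most of the epithelial genes called were higher in 4i/L/b, and the list as a whole was below primed cells in both groups. Of 16 tested, of 24 in the tables, 8 were higher in 4i/L/b against 1 in NHSM-v, with a median of -0.79. Under the alternative settings the median was -1.577 to -0.096, and 3 to 10 members were higher in 4i/L/b. EPCAM, an adhesion protein of epithelia and pluripotent cells, was at 0, 0.42 and 0.269 CPM in NHSM-v and 8.4, 13 and 9.96 CPM in 4i/L/b (log2 fold change -5.39 ± 0.56 SE, adjusted p = 2.65e-08), against 148 to 206 CPM in primed cells. CDH1, which encodes E-cadherin, was at 0, 0 and 0.0897 CPM in NHSM-v and at 2.12, 3.08 and 2.80 CPM in 4i/L/b, against 30.9 to 108 CPM in primed cells. CDH2, the N-cadherin of neural and mesenchymal cells, was abundant in both groups and higher in NHSM-v, at 1559, 1536 and 1485 CPM in NHSM-v and 778, 883 and 810.1 CPM in 4i/L/b (log2 fold change 0.88 ± 0.06 SE, adjusted p = 6.76e-12). CLDN6, a tight junction protein of early embryonic cells, was the epithelial gene higher in NHSM-v, with 364 ± 7.98 CPM in NHSM-v and 157 ± 3.99 CPM in 4i/L/b (log2 fold change 1.20 ± 0.06 SE, adjusted p = 1.81e-13). With it, the summed level of the list was 779 to 789 CPM in NHSM-v and 637 to 649 CPM in 4i/L/b, against 1880 to 2164 CPM in primed cells.

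Mesenchymal and matrix genes were split. Of 27 mesenchymal genes tested, 12 were higher in NHSM-v and 10 in 4i/L/b. Of 38 collagen and matrix genes, 21 were higher in 4i/L/b against 13 in NHSM-v. Of the fibrillar collagens, COL1A1, COL1A2, COL2A1 and COL3A1 stood higher in 4i/L/b and COL5A2 and COL11A1 higher in NHSM-v. COL1A2 was at 1081, 1042 and 1009 CPM in NHSM-v and 2848, 3729 and 3444 CPM in 4i/L/b (log2 fold change -1.69 ± 0.07 SE, adjusted p = 2.61e-15), COL3A1 differed by 2.64-fold (adjusted p = 2.51e-12) and the cartilage collagen COL2A1 by 2.38-fold (adjusted p = 1.18e-14). The 3 chains of the microfibrillar collagen VI tested, COL6A1, COL6A2 and COL6A3, stood higher in NHSM-v, with COL6A1 at 1635, 1525 and 1724 CPM in NHSM-v and 519.8, 659 and 570.1 CPM in 4i/L/b (log2 fold change 1.47 ± 0.07 SE, adjusted p = 2.71e-14). DCN, a proteoglycan that binds fibrillar collagen, was at 2.3, 1.68 and 1.52 CPM in NHSM-v and 26.4, 47 and 51.5 CPM in 4i/L/b (log2 fold change -4.52 ± 0.27 SE, adjusted p = 1.79e-12), with 0 in each primed library. The protease MMP3 and the proteoglycan FMOD were also among the genes of largest difference, with log2 fold changes of -6.47 and -6.53 (adjusted p = 2.2e-11 and 6.26e-12). The summed level of 8 fibroblast markers was 7789 to 8370 CPM in NHSM-v and 11630 to 15240 CPM in 4i/L/b, with none at the floor in either. The sum includes COL1A1, COL1A2, COL3A1 and DCN, so it is not separate from the differences above. The part of fibroblast-like cells in the result was not tested.

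**Figure D3:**
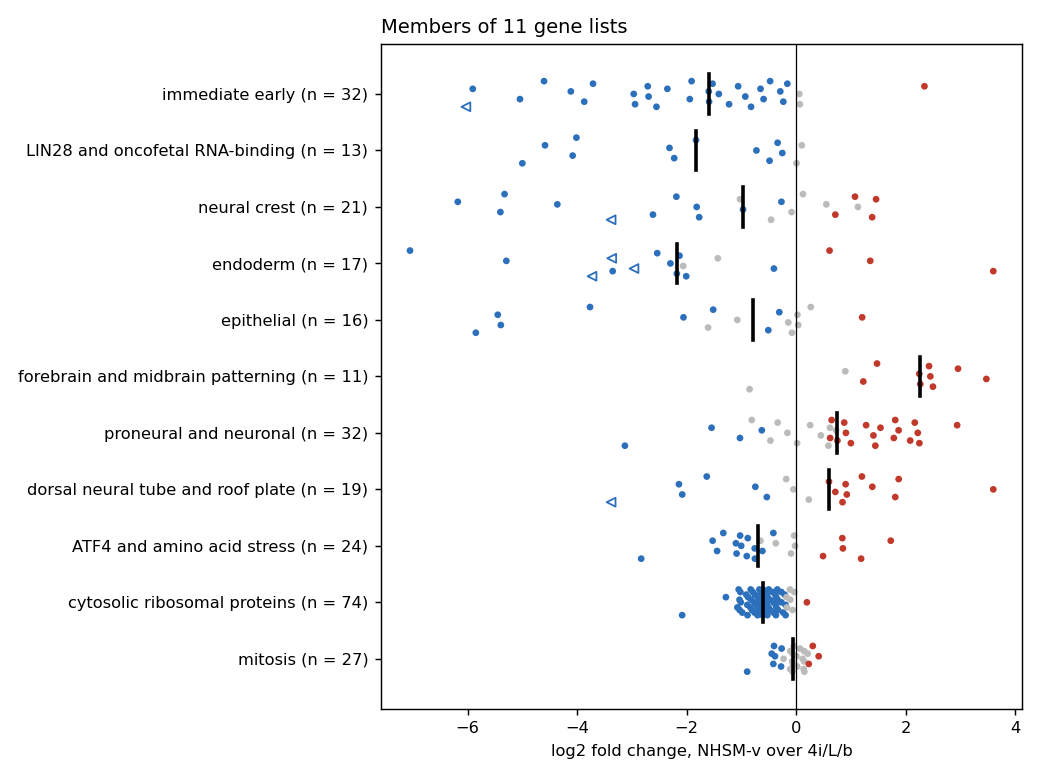
Log2 fold change of NHSM-v over 4i/L/b for each tested member of 11 gene lists, 1 point per gene, red and blue where the gene was called and grey where it was not, with vertical bars at the medians. Open triangles mark members at 0 in every NHSM-v library, drawn at the smallest difference that a floor of 3 counts allows. The forebrain and midbrain list has its median at 2.27 and the immediate early list at -1.59, while the 27 mitosis genes lie close to 0, with a median of -0.06.

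Among signalling pathways, the LIF and STAT3 genes were split, with 5 of 18 higher in NHSM-v and 7 in 4i/L/b and a median of -0.11. The LIF receptor subunits LIFR and IL6ST were slightly higher in 4i/L/b, and their effector STAT3 and its feedback inhibitor SOCS3 were higher in NHSM-v. STAT3 was at 569, 601 and 610.1 CPM in NHSM-v and 366, 356 and 350.2 CPM in 4i/L/b (log2 fold change 0.72 ± 0.06 SE, adjusted p = 3.82e-10), and both groups exceeded the 99.7 to 220.1 CPM of primed cells. Since the line carries a STAT3 transgene, reads of the transgene and of the endogenous gene cannot be told apart in these counts. SOCS3 had 35.6 ± 4.25 CPM in NHSM-v and 24.1 ± 2.2 CPM in 4i/L/b (log2 fold change 0.56 ± 0.15 SE, adjusted p = 0.00319). The larger differences went towards 4i/L/b. PIM1, a kinase gene that STAT3 induces, was at 36.1, 37.1 and 32.8 CPM in NHSM-v and 179, 150.1 and 170 CPM in 4i/L/b (log2 fold change -2.25 ± 0.10 SE, adjusted p = 4.09e-15), and the receptor gene CNTFR was higher in 4i/L/b by 2.7-fold (adjusted p = 2.38e-10).

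Wnt targets had no single order. Of 15 tested, 8 were higher in NHSM-v and 4 in 4i/L/b, with a median of 0.36. AXIN2, a feedback inhibitor and general Wnt target, was high in both groups, at 275, 263 and 278 CPM in NHSM-v and 216, 214 and 233 CPM in 4i/L/b (log2 fold change 0.29 ± 0.06 SE, adjusted p = 0.000726), against 4.36 to 10.6 CPM in primed cells. RNF43, which removes Wnt receptors from the membrane, was at 80.2, 79.3 and 69.6 CPM in NHSM-v and 20, 16.6 and 18.5 CPM in 4i/L/b (log2 fold change 2.04 ± 0.13 SE, adjusted p = 2.94e-12). LEF1, the transcription factor of the pathway, and DKK1, a secreted antagonist, were higher in 4i/L/b, with 75.5 ± 5.41 CPM in NHSM-v and 149 ± 8.08 CPM in 4i/L/b for LEF1 (log2 fold change -0.99 ± 0.09 SE, adjusted p = 1.34e-09) and 3.14 ± 1.75 CPM in NHSM-v and 25.7 ± 6.38 CPM in 4i/L/b for DKK1 (log2 fold change -3.06 ± 0.30 SE, adjusted p = 1.31e-08).

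The genes of BMP signalling were split, with 10 of 25 higher in NHSM-v and 7 in 4i/L/b, and the largest differences, those of the ligands BMP6 and GDF6, went towards NHSM-v. BMP6, secreted by the roof plate among other sources, was at 105, 128 and 118 CPM in NHSM-v and 8.59, 6.64 and 13.2 CPM in 4i/L/b (log2 fold change 3.60 ± 0.16 SE, adjusted p = 7.63e-15), and GDF6, of the same family, was at 22.5, 18.7 and 20.8 CPM in NHSM-v and 1.64, 1.6 and 1.74 CPM in 4i/L/b (log2 fold change 3.62 ± 0.27 SE, adjusted p = 9.51e-11). Neither exceeded 1.93 CPM in any primed library. Of the direct BMP targets, ID1 was at 31.8, 31.5 and 42.2 CPM in NHSM-v and 5.79, 8.12 and 4.64 CPM in 4i/L/b (log2 fold change 2.52 ± 0.21 SE, adjusted p = 6.71e-10) and the inhibitor SMAD6 differed by 4.47-fold (adjusted p = 1.39e-05), whereas ID2 was higher in 4i/L/b by 1.59-fold (adjusted p = 3.19e-05) and ID3 did not pass the test (adjusted p = 0.959). Of the other ligands, BMP7 was higher in NHSM-v (adjusted p = 0.0077), BMP5 and GDF10 were higher in 4i/L/b (adjusted p = 1.82e-07 and 0.00326), and BMP2, BMP4 and GDF7 did not pass the test.

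Of 22 genes of the Nodal, Activin and TGF-beta pathway, 11 were higher in NHSM-v and 7 in 4i/L/b. The ligand TGFB3 was at 198, 190.3 and 199.8 CPM in NHSM-v and 42.5, 61.4 and 49.7 CPM in 4i/L/b (log2 fold change 1.94 ± 0.10 SE, adjusted p = 1.4e-13), and the receptor TGFBR2 was higher in NHSM-v by 2.75-fold (adjusted p = 1.24e-10). NODAL was at 3.1, 0 and 0 CPM in NHSM-v and 12.6, 15.6 and 11.3 CPM in 4i/L/b (log2 fold change -3.77 ± 0.66 SE, adjusted p = 4.85e-05), with 22.7 to 55.9 CPM in primed cells, and its call was lost with DESeq2 (adjusted p = 0.16).

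Further pathways held single genes of large difference. In the Hedgehog pathway, 6 of 17 genes were higher in 4i/L/b against 3 in NHSM-v, and the feedback receptor PTCH1 was at 23.1, 16 and 18.4 CPM in NHSM-v and 65.2, 63.9 and 59.7 CPM in 4i/L/b (log2 fold change -1.73 ± 0.14 SE, adjusted p = 3.58e-10). Of 21 Notch genes, 8 were higher in 4i/L/b against 7 in NHSM-v, with the target HES1 and the receptor NOTCH1 higher in NHSM-v (2.86-fold and 2.1-fold, adjusted p = 2.76e-09 and 1.77e-11) and the target HEY1 higher in 4i/L/b (log2 fold change -2.0 ± 0.43 SE, adjusted p = 0.000465). Of 14 retinoic acid genes, 5 were higher in each medium. CRABP1, a retinoic acid binding protein, had a small SE for the size of its difference, at 79.5, 83.7 and 83.6 CPM in NHSM-v and 878, 778 and 822 CPM in 4i/L/b (log2 fold change -3.33 ± 0.07 SE, adjusted p = 1.62e-20). Of 17 FGF ligands and receptors, 8 were higher in 4i/L/b against 4 in NHSM-v, with FGF2 higher in NHSM-v (log2 fold change 0.78 ± 0.17 SE, adjusted p = 0.00067) and FGFR3 higher in 4i/L/b (log2 fold change -1.16 ± 0.20 SE, adjusted p = 3.49e-05).

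Several of the genes of largest difference in NHSM-v stood in no list. ATP10A, a lipid flippase, was at 109, 116 and 136 CPM in NHSM-v and 3.57, 6.03 and 3.67 CPM in 4i/L/b (log2 fold change 4.78 ± 0.16 SE, adjusted p = 8.65e-17). TENM2, a teneurin that guides neuronal contacts, was at 829, 726 and 902 CPM in NHSM-v and 72.8, 93.3 and 91 CPM in 4i/L/b (log2 fold change 3.25 ± 0.09 SE, adjusted p = 2.44e-18), and GLIS3, a Krüppel-like zinc-finger factor, had 129 ± 2.07 CPM in NHSM-v and 8.69 ± 2.59 CPM in 4i/L/b (log2 fold change 3.89 ± 0.15 SE, adjusted p = 4.95e-16). All 3 were at most 3.94 CPM in any primed library. Their NHSM-v levels exceeded their 4i/L/b levels by 9.53-fold to 27.5-fold, without overlap.

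Several lists of housekeeping functions leaned by small amounts towards 4i/L/b. Heat shock and chaperone genes did not, with 9 of 25 higher in NHSM-v, 6 in 4i/L/b and a median of 0.134. In a list of 74 cytosolic ribosomal protein genes, assembled after the values had been seen, 67 were higher in 4i/L/b, 1 was higher in NHSM-v, and the median was -0.60 on the log2 scale. Their summed level was 13130 to 14040 CPM in NHSM-v, 18500 to 20660 CPM in 4i/L/b and 25510 to 27360 CPM in primed cells. RPL3, of the large subunit, was at 475, 467 and 437 CPM in NHSM-v and 809, 758 and 855 CPM in 4i/L/b (log2 fold change -0.82 ± 0.06 SE, adjusted p = 7.38e-11), and RPLP0, of its stalk, had 499 ± 14.1 CPM in NHSM-v and 715 ± 38.1 CPM in 4i/L/b (log2 fold change -0.53 ± 0.06 SE, adjusted p = 7.78e-08). Ribosomal protein genes have many processed pseudogenes, and how the counting treated shared reads was not given in the sources used here, so their single values are uncertain.

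In oxidative phosphorylation, 12 of 31 genes were higher in 4i/L/b against 1 in NHSM-v, with a median of -0.30. The share called was 41.9%, below the 50.1% of all genes tested. In glycolysis and hypoxia response, 15 of 28 were higher in 4i/L/b against 5 in NHSM-v, with a median of -0.26 and 71.4% called. Of 24 genes that ATF4 induces under amino acid stress, 14 were higher in 4i/L/b against 5 in NHSM-v, with a median of -0.70. SLC7A11, the cystine transporter, was at 16.8, 13.8 and 15.8 CPM in NHSM-v and 111, 114 and 103 CPM in 4i/L/b (log2 fold change -2.83 ± 0.12 SE, adjusted p = 2.15e-15), ASNS, which makes asparagine, had 53.5 ± 7.19 CPM in NHSM-v and 153 ± 5.51 CPM in 4i/L/b (log2 fold change -1.53 ± 0.10 SE, adjusted p = 4.38e-12), and ATF4 itself had 299.6 ± 11.6 CPM in NHSM-v and 504 ± 21.4 CPM in 4i/L/b (log2 fold change -0.76 ± 0.06 SE, adjusted p = 3.17e-10). The leucine transporter SLC7A5 had the opposite order, with 768 ± 10.7 CPM in NHSM-v and 427 ± 40.5 CPM in 4i/L/b (log2 fold change 0.84 ± 0.06 SE, adjusted p = 1.62e-10).

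Cell cycle genes differed little as a group. Of 27 mitosis genes, 7 were higher in 4i/L/b against 3 in NHSM-v, with a median of -0.06, and of 27 G1-S genes, 6 and 7, with a median of -0.01. Among the larger differences were those of D-type cyclins and their kinase. CCND2 was at 164, 157 and 162 CPM in NHSM-v and 931, 865 and 807 CPM in 4i/L/b (log2 fold change -2.44 ± 0.07 SE, adjusted p = 2.44e-18), while CCND3 and CDK6 were higher in NHSM-v by 1.9-fold and 2.73-fold (adjusted p = 2.72e-05 and 1.16e-08). TYMS, which makes thymidylate for DNA synthesis, and CENPE, a kinetochore motor, were higher in 4i/L/b by 1.9-fold and 1.86-fold (adjusted p = 3.52e-09 and 1.22e-10). The difference in BCL2, an inhibitor of apoptosis, did not pass the test, at 1.03, 3.36 and 3.95 CPM in NHSM-v and 4.54, 2.09 and 1.64 CPM in 4i/L/b (adjusted p = 0.988), with overlapping groups. Its relative MCL1 was higher in 4i/L/b, at 284, 293 and 301 CPM in NHSM-v and 736, 674 and 729.6 CPM in 4i/L/b (log2 fold change -1.29 ± 0.06 SE, adjusted p = 1.56e-14). The 445 X-linked genes tested had a median difference of -0.04 against -0.03 for 11872 autosomal genes, with 49.4% and 50.6% of them called.

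**Figure D4:**
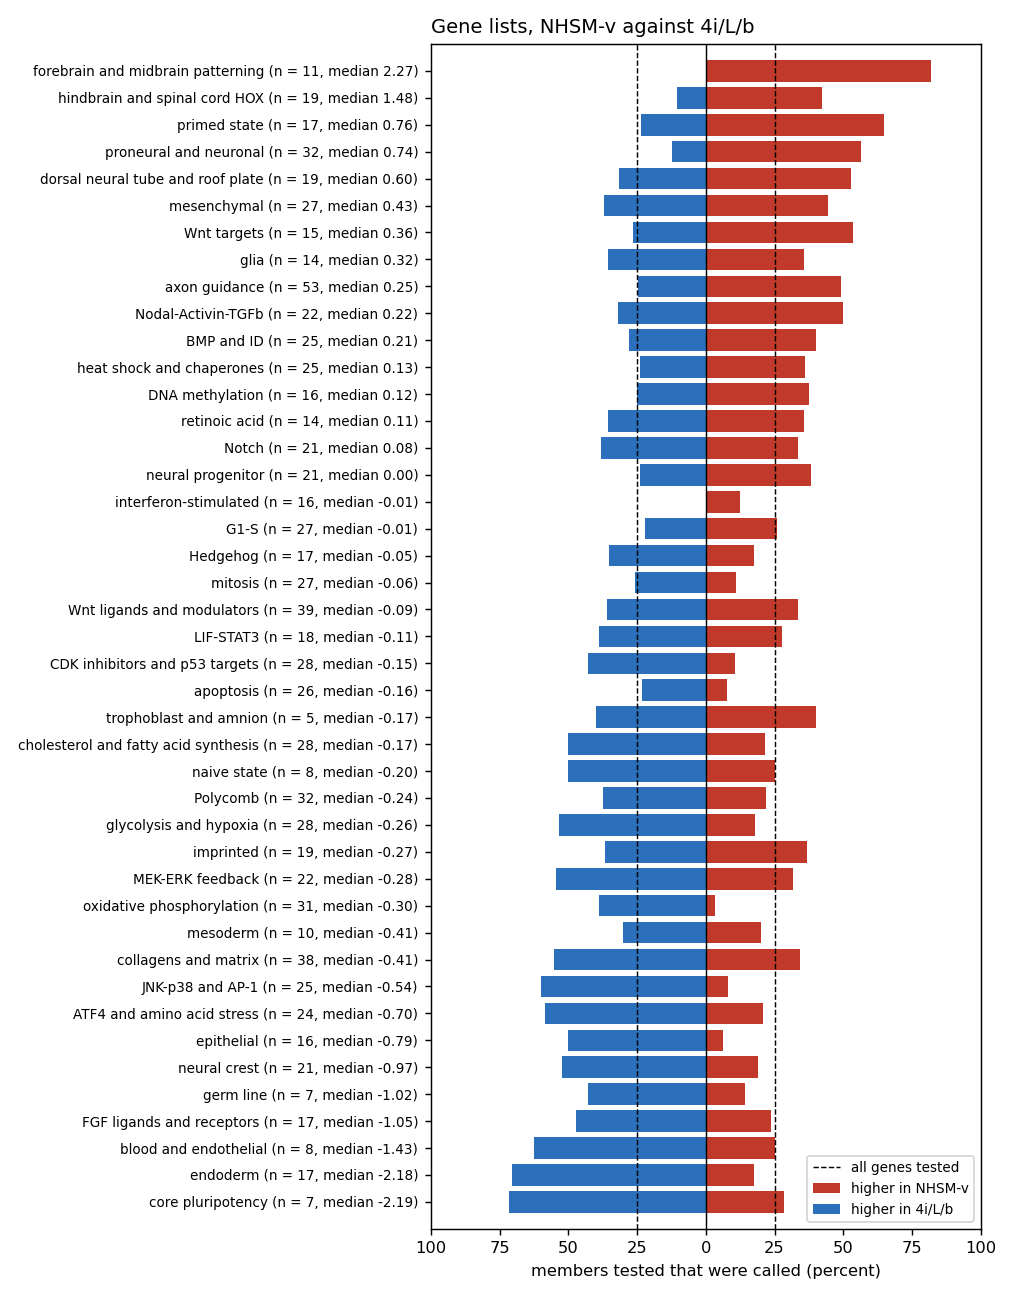
Percent of the tested members of 43 gene lists that were called higher in NHSM-v (red, to the right) or in 4i/L/b (blue, to the left), ordered by median log2 fold change, which stands with the number tested beside each name. Dashed lines mark the shares over all genes tested, 25% and 25.1%. Forebrain and midbrain patterning, HOX and primed-state genes stand at the top and core pluripotency and endoderm genes at the bottom.

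Set beside primed cells, the genes that differed took different positions. Of the 778 genes higher in NHSM-v by at least 1 on the log2 scale, the primed mean was below both groups for 519 (66.7%), between them for 183 (23.5%) and above both for 76 (9.77%). Of the 1185 genes higher in 4i/L/b by as much, it was below both for 427 (36.0%), between them for 445 (37.6%) and above both for 313 (26.4%). Over all genes tested the shares were 47.3%, 17.1% and 35.6%. The root mean square difference of log2 CPM from primed cells was 1.77 for NHSM-v and 1.64 for 4i/L/b, and between both media it was 1.03. Both distances use the same primed libraries.

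Among the 10 pairs of cells reprogrammed in TL2i, t2iLGöY, LCDM (EPS), NHSM-v or 4i/L/b, each with 3 libraries, the root mean square difference of log2 CPM ranged from 0.825 to 1.40. The pair of NHSM-v and 4i/L/b ranked the third from below, and the closest pair was 4i/L/b and TL2i. Per the paper, TL2i cells were cultured with tamoxifen, which activates STAT3-ERT2, and cells in the other media of this set were not. The genes described above had no common order in the other media. SOX10 had a mean of 126 CPM in TL2i, 178 CPM in t2iLGöY and 3.98 CPM in LCDM (EPS) cells, so that NHSM-v had the lowest mean of these 5 media. EGR3 had 18.6 CPM in TL2i, 0.268 CPM in t2iLGöY and 1.22 CPM in LCDM (EPS) cells, so that 4i/L/b had the highest mean. BMP6 was at 100.3 CPM in t2iLGöY and at 7.76 to 9.89 CPM in TL2i and LCDM (EPS) cells, against 117 CPM in NHSM-v.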

How the data were processed

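Per the labels, RNA (200 ng) was made into directional mRNA libraries (NextFlex Rapid kit) and sequenced as single reads of 75 bp, and the submitters' processing notes name bcl2fastq, cutadapt, HISAT2 and HTSeq. The genome build, the annotation and the strand setting were not given in the sources used here, nor were the components of NHSM-v, so no coordinates are printed, and antisense and near-identical genes may share reads. The authors deposited unnormalized counts for each gene symbol, with each library in its own column. Columns of the 6 compared libraries matched single labels by name.

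From the counts, edgeR 4.0.16 in R 4.3.3 gave TMM scaling, filterByExpr filtering and the quasi-likelihood test on the 6 libraries alone, with Benjamini-Hochberg adjustment at 0.05 and no block. Levels in CPM were scaled over all 27 libraries. A fold change against a group at 0 in each library was taken from a floor of 3 counts per library. DESeq2 1.42.0, limma 3.58.1 (voom), other scalings, filters and left-out libraries were alternatives. On simulated counts of 12847 genes, 200 of them changed, the test recovered 76% of genes with a true log2 difference of 1 and 92.9% of those with 2. Unchanged genes made up 5.11% of the calls. In the data a far larger share of genes was called, so these rates need not hold for this comparison.

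The members and lists were chosen with earlier results of these data known, and 5 of the 48 lists after the values of this comparison had been seen. Genes named outside the lists are those with the 15 largest differences each way among called genes with at least 20 CPM in the higher group and no overlap. In each list, the 3 largest called differences each way with at least 5 CPM were preferred, with the genes the study names and further members to complete a pathway. List sizes in the text are the members tested, and some members that the rule names are not reported here. Chromosomes of 12317 symbols (94.5% of those tested) were taken from RefSeq's T2T-MMU8v2.0, used only to separate X from autosomes.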

Additional observations from a re-analysis of the deposited data

Results flagged for a closer look

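Of 41 genes looked at for a single library far from the others in the 6 primed libraries, 9 had one by Dixon's test. For normally distributed levels, chance gives one in about 1 of 20 groups. The 9 genes had primed medians near 0, so that rate need not hold and no excess is claimed. Each of the 9 is a low level in the primed reference, not in NHSM-v or 4i/L/b. C14H11orf87 was at 1.21 CPM, GDF6 at 0.808 CPM, MMP3 at 1.08 CPM and IGF2 at 0.988 CPM in 1 library of the columns lettered K. ATP10A was at 0.556 CPM, FMOD at 1.18 CPM, KLF4 at 2.39 CPM, GATA6 at 7.18 CPM and SOX17 at 2.47 CPM in 1 library of the columns lettered J. The medians of the 6 primed libraries were 0 to 0.703 CPM for these genes. With 3 libraries each, NHSM-v and 4i/L/b were not checked in this way.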

How the results depend on the processing

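The count of genes called was 5335 to 6860 under the alternatives other than a fit of all 8 groups, which gave 4535, and 5335 to 6624 with 1 library left out. Genes higher in NHSM-v were 2122 in the fit of all 8 groups, against 3262. With at least 10 counts in every library, 758 genes were higher in 4i/L/b by at least 1 on the log2 scale, against 1185, as that filter removes genes near 0 in NHSM-v. The split between media moved from 49.9% of calls higher in NHSM-v to 44.1% with upper-quartile scaling and 41.2% with library totals. These shifted the median of all genes from -0.03 to -0.08 and -0.11. The X minus autosome median was -0.014, and -0.02 to 0.013 with 1 library left out, the highest without NHSM-v replicate 1. The root mean square distance was 1.31 with a prior count of 0.5, against 1.03.

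The difference in KLF4, not called, was -0.303 to 0.4 with 1 library left out and turned below 0 without 4i/L/b replicate 2 (-0.021) or NHSM-v replicate 2 (-0.303). That in BCL2, not called, turned to -0.042 with upper-quartile scaling, -0.072 with library totals, -0.003 in the fit of all 8 groups and -0.01 with voom. With 1 library left out BCL2 was at -0.323 to 0.576, below 0 without 4i/L/b replicates 2 (-0.136) or 3 (-0.255) and NHSM-v replicates 2 (-0.128) or 3 (-0.323). TFE3 was called with library totals only (adjusted p = 0.0461). The cause was not tested. Of 239 named genes, 31 lost their call in the fit of all 8 groups and at most 13 under any other setting. With at least 10 counts in every library, only 199 of the named genes could be tested, so the others had no call there.

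Replicate numbers did not pair the libraries. Deviations of libraries with the same number correlated at 0.001, 0.01 and -0.007, and with the replicate block 6387 genes were called, with no change among the named genes. Genes that did not pass the count filter were not tested, and 0 of the called genes had their higher group under 1 CPM. At this depth, differences of genes under that level in both media were not detected.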

Other observations

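Other gene families, grouped by symbol alone after the values had been seen, had their own balance. Of 17 calcium channel genes (CACN), which let calcium into excitable cells, 9 were higher in 4i/L/b against 3 in NHSM-v, with a median of -0.92 on the log2 scale. Of 22 ADAMTS genes, secreted proteases of the matrix, 12 were higher in 4i/L/b against 5 in NHSM-v. Of 11 tubulin genes (TUB), 6 were higher in NHSM-v and 1 in 4i/L/b, with a median of 0.41. Of 386 zinc-finger genes (ZNF), 37.6% were called, against 50.1% of all genes tested. Of 46 proteasome genes (PSM), 14 were higher in 4i/L/b against 4 in NHSM-v, with a median of -0.11. The share called, 39.1%, was also below that of all genes tested.

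Of 53 axon guidance genes, ligands and receptors that steer neurites, 26 were higher in NHSM-v and 13 in 4i/L/b, with a median of 0.25. Interferon-stimulated genes were seldom called, with 2 of 16 higher in NHSM-v and 0 in 4i/L/b. Of 19 YAP-TEAD targets, a list made after the values had been seen, 9 were higher in 4i/L/b against 6 in NHSM-v. ANKRD1, a muscle and stretch-response gene in that list, was at 34.3, 25.4 and 17.1 CPM in NHSM-v and 354, 368 and 379 CPM in 4i/L/b (log2 fold change -3.87 ± 0.13 SE, adjusted p = 1.2e-16 by edgeR's quasi-likelihood test). The groups did not overlap.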
